A study of Homo sapiens with 16 samples.

Results

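The 4 genes of the human Y RNAs, RNY5, RNY4, RNY3 and RNY1, lie together on chromosome 7, and their peaks were followed through the 3 lists of ChIP-Seq peaks deposited for HEK293T cells, a line derived from human embryonic kidney. The members were all peaks within 1 kb of these genes, and the genes were chosen by their measured peaks, since the strongest of them stood near the top of the wild-type list. Presence, fold, rank and width are therefore given as a description, with no test. The wild-type (WT) list held 4 such peaks among 1468, that of POLK-/- cells 4 among 2451 and that of DDX23-/- cells 4 among 5945, 1 at each gene in each list.

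ChIP-Seq recovers the DNA fragments that copurify with a protein, and a peak is a stretch where they pile up above a background. The 3 lists come from untreated HEK293T cells that were WT, lacked POLK, the gene of the translesion DNA polymerase κ, or lacked DDX23, the gene of a DEAD-box RNA helicase of the spliceosome. The labels call the antibody Polk, whereas the protocol they share names an anti-FLAG gel, no tag is given for these 3 genotypes, and the prefix R_ of these samples is not explained. Whether a knockout line is 1 clone is not stated in the labels, and the loss of either gene cannot be checked in peak lists. There was 1 list per genotype and thus no replicate of any value below, so that genotype and library cannot be told apart. For the WT and DDX23-/- lists the library number carried by the peak names is not that of the sample to which the deposit ties the list, so the library behind them is uncertain.

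Y RNAs are small noncoding RNAs made by RNA polymerase III. They are bound by the Ro60 and La proteins, take part in RNA quality control, and are known for a role in the initiation of DNA replication in human cell extracts. Their genes, like those of U6 and 7SK RNA, belong to the class whose promoter lies before the gene, with a TATA box, a proximal sequence element (PSE) read by the SNAPc complex, and a distal element read by factors such as the octamer-binding protein OCT1 and ZNF143. Most other genes of this polymerase, including those of tRNA and 5S rRNA, carry the promoter inside the transcribed sequence.

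The genes span 45.8 kb of GRCh37, which is hg19 in coordinates. RNY5 (ENSG00000252310.1) is at chr7:148638580-148638658, RNY4 (ENSG00000252316.1) at chr7:148660407-148660502 and RNY3 (ENSG00000202354.1) at chr7:148680847-148680948, all on the plus strand. RNY1 (ENSG00000201098.1), at chr7:148684228-148684340, is on the minus strand and faces RNY3, with the starts 3493 bp apart. The gaps between the starts of RNY5 and RNY4 and of RNY4 and RNY3 are 21827 and 20440 bp. RNY5, RNY4 and RNY1 are shown first, 5′ to 3′ as the RNA is read and in DNA letters, because the genes are short enough for the peaks to cover them whole. Capitals mark the strings of at least 6 bases that these 3 genes hold.
RNY5: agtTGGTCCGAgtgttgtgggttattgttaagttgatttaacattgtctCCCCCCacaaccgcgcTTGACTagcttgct
RNY4: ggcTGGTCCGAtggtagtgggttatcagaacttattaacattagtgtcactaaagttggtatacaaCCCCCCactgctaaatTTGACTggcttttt
RNY1: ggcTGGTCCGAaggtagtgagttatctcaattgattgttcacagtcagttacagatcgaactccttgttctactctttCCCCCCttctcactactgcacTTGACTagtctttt
The shared strings are TGGTCCGA, from base 4 in each of the 3, a run of 6 C, from base 50, 67 and 79 in RNY5, RNY4 and RNY1, and TTGACT, from base 66, 83 and 100. The first and the last belong to the ends of the RNA, which pair with each other in the stem that holds the Ro60 site. A run of 4 T, the stop signal of RNA polymerase III, closes RNY4 and RNY1, and in RNY5 it begins 2 bases past the annotated end. These genes, of 79, 96 and 113 bases, matched each other at 70.9 to 82.3% of the bases of the shorter gene.

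The 250 bases before each start are shown because the peaks reach into them and because they differ more than the genes do. They are at chr7:148638330-148638579 for RNY5, chr7:148660157-148660406 for RNY4, chr7:148680597-148680846 for RNY3 and, on the minus strand, chr7:148684341-148684590 for RNY1. Capitals mark matches, on either strand, to the octamer ATGCAAAT, to the TATA strings (TATAAA, its variant TATAAG, its variant TTATAA, or the repeat TATATA), to the PSE core ACCNTAAC, and to CCCANNATG, the core of the ZNF143 site, where N is any base. Overlapping matches share 1 run of capitals.
RNY5: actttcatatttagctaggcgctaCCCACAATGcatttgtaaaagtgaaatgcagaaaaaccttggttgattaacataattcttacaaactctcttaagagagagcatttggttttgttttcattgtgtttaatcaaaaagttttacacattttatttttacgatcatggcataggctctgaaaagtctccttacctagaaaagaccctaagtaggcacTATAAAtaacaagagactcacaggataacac
RNY4: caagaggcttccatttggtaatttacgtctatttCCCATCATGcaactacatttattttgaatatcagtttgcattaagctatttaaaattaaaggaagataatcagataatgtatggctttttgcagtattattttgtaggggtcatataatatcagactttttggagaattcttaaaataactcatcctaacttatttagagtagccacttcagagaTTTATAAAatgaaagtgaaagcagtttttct
RNY3: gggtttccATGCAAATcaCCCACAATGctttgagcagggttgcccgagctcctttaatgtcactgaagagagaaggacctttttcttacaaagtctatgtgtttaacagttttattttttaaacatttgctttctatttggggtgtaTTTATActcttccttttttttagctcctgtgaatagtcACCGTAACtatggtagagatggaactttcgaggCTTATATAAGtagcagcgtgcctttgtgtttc
RNY1: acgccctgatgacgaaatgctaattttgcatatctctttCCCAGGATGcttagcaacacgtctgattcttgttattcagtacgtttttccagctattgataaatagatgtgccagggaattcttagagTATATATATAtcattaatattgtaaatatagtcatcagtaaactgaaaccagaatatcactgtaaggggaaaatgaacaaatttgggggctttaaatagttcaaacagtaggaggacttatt
The bases before the starts matched at 56.8 to 60% between pairs of genes. TATA strings began 28 to 32 bases before the start in RNY5, RNY4 and RNY3, which had another 103 bases before it. In RNY1 no TATA string was found within 100 bases, and the nearest began 118 bases before the start. Among 64246 promoters of the annotation, 11.2% had a TATA string within 100 bases and 26.2% had one between 250 bases before the start and 50 after it, the window searched for all motifs. The octamer was found only in RNY3, 242 bases before the start, against 2.24% of all promoters. The PSE string ACCNTAAC, held by 1.41% of promoters, was likewise found in RNY3 alone, 65 bases before the start, together with the overlapping CACCNTAA (2.1%). The shorter core CCNTAA, held by 27.3%, was present in RNY5 and RNY3. CCCANNATG, searched for after the 4 sequences had been read, stood 211 to 232 bases before the start in 4 of 4 and in 4.88% of all promoters. The consensus strings of the A box and the B box, the gene-internal promoter elements, were found in 0 of the 4 windows, against 0.425% and 0.157% of all promoters. Strings this rare would seldom be met in 4 windows, which also end 50 bases into each gene. Neither string was found in the whole genes RNY5, RNY4 and RNY1. The 4 windows had a GC content of 31.7 to 40%, below the median of 49.3% over promoters.

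Each Y RNA gene had exactly 1 peak within 1 kb in each list, and all 12 peaks overlapped their gene. At the same distance 3.21% of the 64449 annotated genes had a peak in WT cells, 5.45% in POLK-/- and 13.0% in DDX23-/- cells. Of the 8455 genes annotated as small RNAs the shares were 0.816%, 1.03% and 1.73%. The 12 peaks covered the whole gene and the start in every case, and 10 of 12 reached back over the CCCANNATG string. The WT and POLK-/- peaks at RNY4, which began 139 and 23 bases before the start, did not. Beyond 1 kb the next peaks were far away. On the telomeric side the nearest was at the start of PDIA4, 41.1 to 41.2 kb from RNY1 in the 3 lists, and on the other side it was 242 kb away near CUL1 in the WT and POLK-/- lists and 56.7 kb away at EZH2 in the DDX23-/- list. The PDIA4 peak had a deposited fold of 4.89, 7.77 and 18.4 in the WT, POLK-/- and DDX23-/- lists, lower than every Y RNA peak of the same list.

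**Figure D1:**
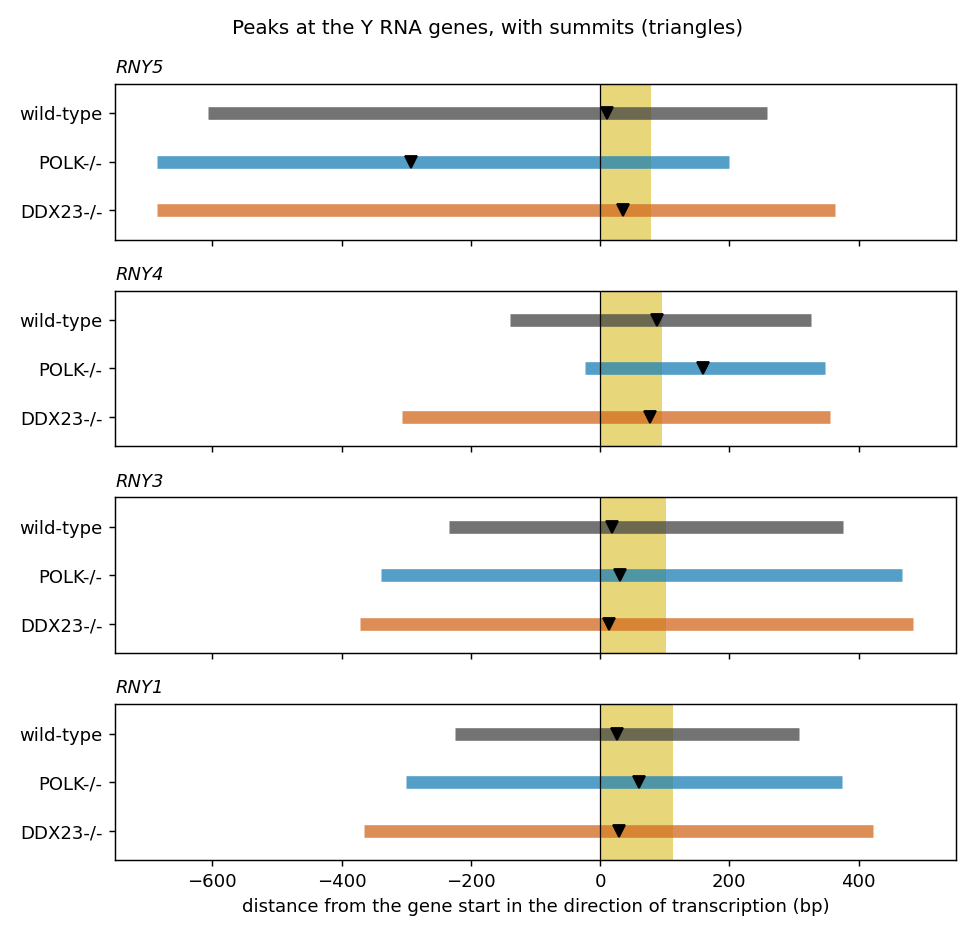
Extent of the Y RNA peaks in the 3 lists, as the distance from the gene start in bp along the direction of transcription. Bars are deposited peaks, triangles are summits and the yellow band is the gene. The POLK-/- peak at RNY5 has its summit 292 bp before the start, whereas RNY3 summits stand 14 to 31 bp into the gene.

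Summits, the positions of the highest pile-up, lay inside the gene in 10 of 12 peaks. Counted from the first transcribed base as 1, the RNY3 summit was at base 18 in WT, 31 in POLK-/- and 14 in DDX23-/- cells. The RNY1 summit was at base 26, 61 and 30, and the RNY4 summit at base 88, 160 and 78, the POLK-/- one past the gene end. At RNY5 the summit was at base 11 in the WT list and base 36 in the DDX23-/- list, but 292 bases before the start in the POLK-/- list. Both exceptions were thus in the POLK-/- list, at the genes with the fewest fragments there. That displaced RNY5 summit was 32 bp from the start of a lncRNA on the opposite strand, ENSG00000286180, whose start is 260 bp from that of RNY5. Another lncRNA, ENSG00000286171, begins 5 bp from RNY5 on the same strand and covers it, and the lncRNA GHET1 begins 279 bp from RNY1 in the opposite direction. Transcription of a Y RNA and of these neighbours cannot be told apart in a peak.

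The RNY5 peak was the widest of the 4 in each list, at 866 bp in WT, 885 bp in POLK-/- and 1049 bp in DDX23-/- cells. It extended 607 to 686 bp before the start, across the start of the opposite lncRNA. RNY3 peaks measured 610, 806 and 856 bp, RNY1 peaks 533, 674 and 789 bp, and RNY4 peaks 466, 371 and 662 bp. All were wider than the median peak of their list (328, 349 and 347 bp). The DDX23-/- peak was the widest at each gene, 1.21 to 1.48 times its WT counterpart, in the list with the deepest library (3.94 times the WT depth).

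The deposited fold of RNY3, the gene with the strongest WT peak, was 54.1 in WT, 22.5 in POLK-/- and 51.5 in DDX23-/- cells. RNY5 had a fold of 37.6, 12.6 and 55.7. RNY4 had 28.8, 10.2 and 43.1. At RNY5 and RNY4 the order of the lists was the same, with POLK-/- lowest and DDX23-/- highest. RNY1 differed from the other members, with a fold of 27.8 in WT, 36.3 in POLK-/- and 71.4 in DDX23-/- cells, and was the only one with its lowest value in the WT list.

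The deposited fold divides the fragments at the summit by a local background, with 1 added to both, and both could be recovered from the deposited values. The RNY3 summit held 250 fragments in WT (95% exact Poisson interval 220 to 283), 365 in POLK-/- (329 to 404) and 389 in DDX23-/- cells (351 to 430). RNY1 held 128 (107 to 152), 127 (106 to 151) and 336 (301 to 374). RNY5 held 73 (57.2 to 91.8), 67 (51.9 to 85.1) and 252 (222 to 285), and RNY4 held 52 (38.8 to 68.2), 40 (28.6 to 54.5) and 197 (170 to 227). The order RNY3, RNY1, RNY5, RNY4 was the same in the 3 lists. The intervals of RNY5 and RNY4 overlapped in each list, and those of RNY3 and RNY1 overlapped in the DDX23-/- list. Overlap does not show that the counts are equal, and these neighbours in the order were not compared directly. RNY3 exceeded RNY4 4.81 times in WT, 9.12 times in POLK-/- and 1.97 times in DDX23-/- cells. These intervals cover counting error only, since fragments copied by PCR are not independent molecules. They also take no account of an upper limit on the fragments at a summit, which is described below.

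The local background at RNY3 was 6.35 times the genome-wide background of the list in WT, 12.0 times in POLK-/- and 3.12 times in DDX23-/- cells, and rested on 6, 11 and 4 control fragments. At RNY1 it was 6.35 times genome-wide in the WT list, on 6 control fragments, but 1.74 and 1.65 times in the POLK-/- and DDX23-/- lists. RNY5 stood at 1.69, 3.26 and 1.56 times and RNY4 at 1.47, 2.16 and 1.59 times. The folds of RNY3 in each list and of RNY1 in the WT list thus had a divisor further above the genome-wide level than most others. With the genome-wide background as the divisor instead, RNY3 reached 436 (384 to 494) in WT, 292 (263 to 324) in POLK-/- and 200 (181 to 221) in DDX23-/- cells. RNY1 reached 223 (186 to 266), 102 (84.7 to 121) and 173 (155 to 192), RNY5 127 (99.8 to 160), 53.6 (41.6 to 68.1) and 130 (114 to 147), and RNY4 90.7 (67.8 to 119), 32.0 (22.9 to 43.6) and 101 (87.7 to 117). On this scale RNY1, RNY5 and RNY4 had their lowest value in the POLK-/- list, with an interval below those of the other lists. RNY3 was highest in WT and lowest in DDX23-/- cells, with intervals that did not overlap. Its DDX23-/- count of 389 was, however, close to 390, the highest at any summit of that list. The order of the RNY3 values is therefore not read as a difference between genotypes.

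**Figure D2:**
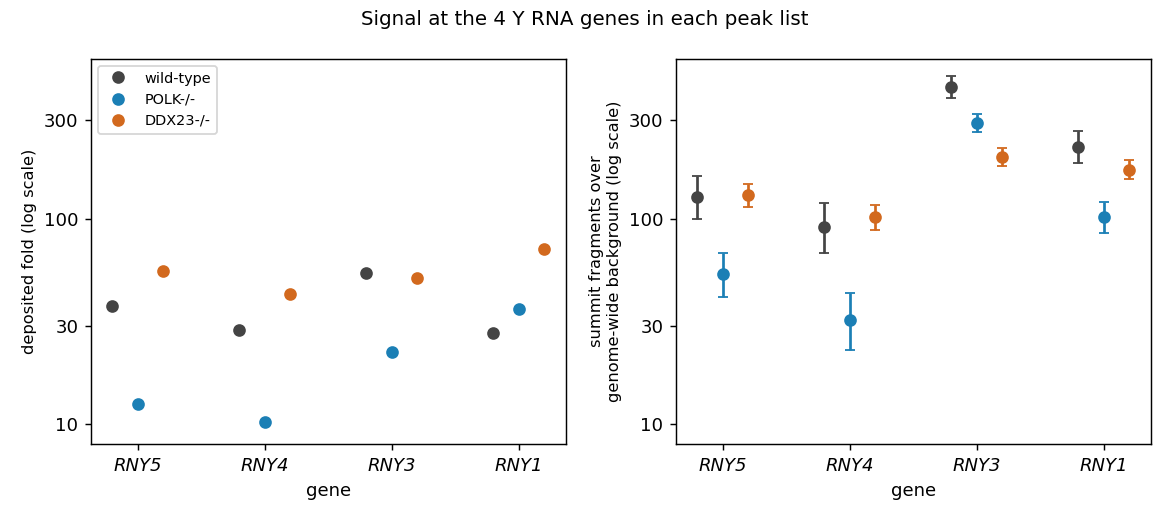
Signal at each Y RNA gene in the 3 lists on log axes, as the deposited fold (left) and as summit fragments over the genome-wide background (right). Bars on the right are 95% exact Poisson intervals and cover counting error only. RNY1 has its lowest deposited fold in the WT list (27.8), whereas over the genome-wide background its lowest value is in the POLK-/- list (102).

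The number of fragments at a summit did not exceed 2 times the length of the shortest peak in bp, which came to 456, 422 and 392 in the WT, POLK-/- and DDX23-/- lists. The highest summit held 456, 402 and 390 fragments. RNY3 stood at 54.8% of that number in WT, 86.5% in POLK-/- and 99.2% in DDX23-/- cells, and 2, 1 and 39 peaks of these lists were above 95%. RNY1 was at 85.7% in the DDX23-/- list and at 30.1% or less in the others, and RNY5 and RNY4 were at 64.3% or less in all. Peaks gathered at this level in the DDX23-/- list, where RNY3, with 389 fragments and 200 over the genome-wide background, was number 2 on that scale. Its value there could hardly have been higher, and its counting interval, which assumes no such limit, does not hold. What sets this level was not tested.

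By the deposited p, RNY3 was at rank 4 of 1468 for WT, rank 90 of 2451 for POLK-/- and rank 46 of 5945 for DDX23-/- cells. RNY1 was at rank 88, 184 and 50, RNY5 at rank 115, 378 and 144, and RNY4 at rank 157, 634 and 204. On chromosome 7 alone RNY3 was the highest of 87 peaks in the WT list and number 2 of 110 and of 311 in the others, and the lowest of the members, RNY4, was number 7, 29 and 11. By the deposited p the 4 genes were thus in the upper 10.7% of the WT list and the upper 3.43% of the DDX23-/- list. In the POLK-/- list they reached from the upper 3.67% to the upper 25.9%. Among the alternatives for ranks, 40 stayed within 1.5 times the rank given and 8 moved. In WT, POLK-/- and DDX23-/- cells RNY3 was at rank 20, 255 and 118 by the deposited fold. Over the genome-wide background it was at rank 6, 16 and 2.

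**Figure D3:**
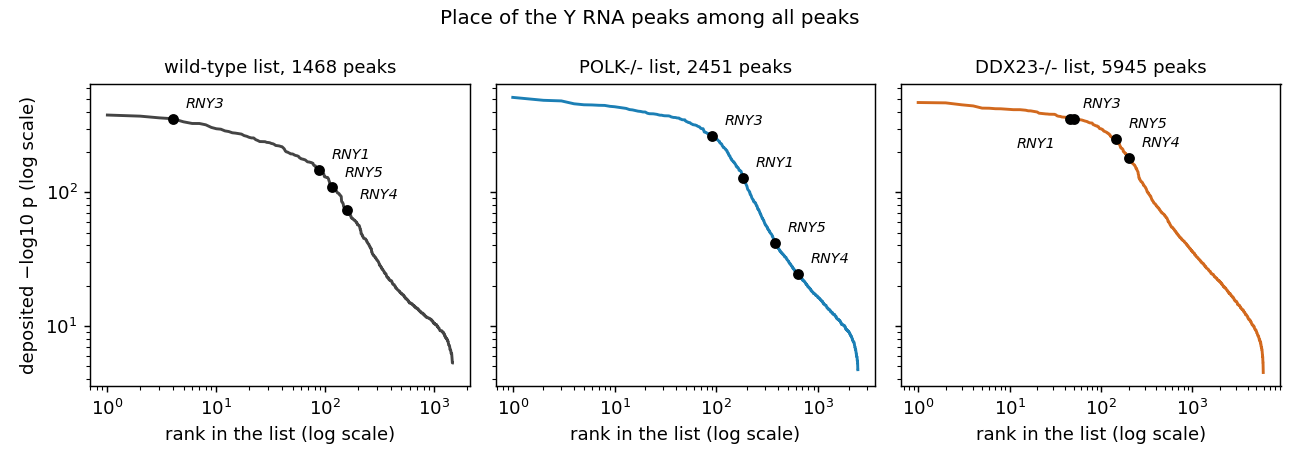
Deposited −log10 p of every peak against its rank, both on log axes, with a panel per list and the Y RNA genes as black points. RNY4 is at rank 157 of 1468 for WT, rank 634 of 2451 for POLK-/- and rank 204 of 5945 for DDX23-/- cells.

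The POLK-/- values were then set against those of WT. The fold ratio of POLK-/- to WT was 0.335 at RNY5, 0.355 at RNY4, 0.415 at RNY3 and 1.30 at RNY1, and it was below 1 at 3 of 4 genes and at 33.4% of the 1123 peaks that all 3 lists share. Over the genome-wide background the ratio was 0.421 at RNY5 (95% interval from the exact binomial interval of the fragments 0.298 to 0.595), 0.353 at RNY4 (0.228 to 0.543), 0.670 at RNY3 (0.568 to 0.790) and 0.455 at RNY1 (0.353 to 0.586). It was below 1 at 4 of 4 genes, 1 of them bound to be so, and at 35.9% of shared peaks. At RNY3 a ratio of 1 was out of reach, since its POLK-/- summit held 365 fragments and the highest of that list 402. The count of 4 and the median of the 4 genes thus include a ratio fixed in advance. The genes were also chosen because the strongest of them, RNY3, stood high in the WT list, whose values are the divisor. The median over the shared peaks was 1.11, and over the 4 genes it was 0.438. RNY4 had the lowest ratio of all, 1 of the 1119 other shared peaks was below RNY5, 4 were below RNY1 and 56 were below RNY3. Among 176 other shared peaks that were at least as strong as RNY4 in the WT list, a comparison chosen after the values were seen, the median ratio was 1.05, 0 stood below RNY5, RNY4 or RNY1, and 6 stood below RNY3. With the deposited fold the median of these 176 peaks was 1.54, 0 stood below RNY5, RNY4 or RNY3, and 64 stood below RNY1. The ratios compare summits that did not lie at the same place in WT and POLK-/- cells. They were at base 11 and 292 bases before the start at RNY5, and at base 88 and base 160 at RNY4. With 1 list per genotype the difference carries no test, and the spread between libraries of a genotype is unknown.

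The DDX23-/- values did not move together. The fold ratio of DDX23-/- to WT was 1.48 at RNY5, 1.50 at RNY4, 0.952 at RNY3 and 2.57 at RNY1, below 1 at 1 of 4 genes and at 9.26% of the shared peaks. Over the genome-wide background it was 1.02 at RNY5 (0.782 to 1.34) and 1.12 at RNY4 (0.819 to 1.55), intervals that include 1. It was 0.774 at RNY1 (0.630 to 0.957) and 0.459 at RNY3 (0.390 to 0.540). This put 2 of 4 genes below 1, against 24.7% of the shared peaks, whose median was 1.29. At RNY3 and RNY1 a ratio below 1 was fixed in advance, since their WT values, 436 and 223, exceeded every DDX23-/- value. RNY3 itself, at 200, was number 2 of the DDX23-/- list on this scale. The count of 2 is thus not a result about these genes. Among the 176 strong shared peaks the median was 0.882 and 64.2% were below 1, whereas with the deposited fold the median was 1.70 and 13.1% were below 1. These peaks were selected on a high WT value, which is the divisor of the ratio. Over the genome-wide background, any of them with a WT value above every DDX23-/- value was bound to have a ratio below 1. Over the genome-wide background 3 of the 176 stood below RNY3, as did 6 of the 1119 other shared peaks, and its DDX23-/- summit was at 99.2% of the number given above.

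**Figure D4:**
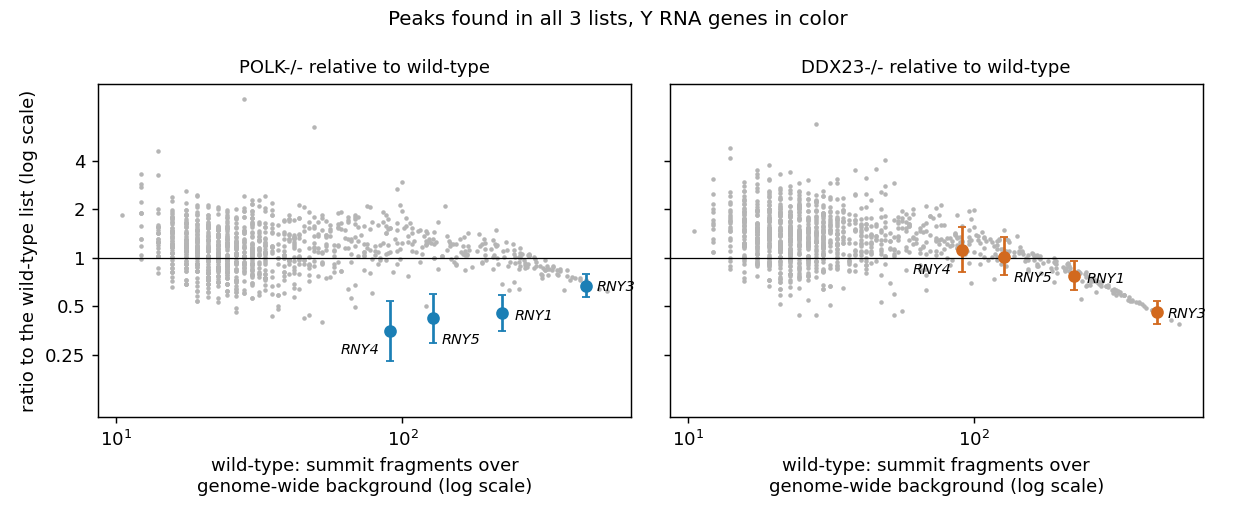
Ratio to the WT list of summit fragments over the genome-wide background, against the WT value, both on log axes, for the peaks of all 3 lists (grey) and the Y RNA genes (colored, with 95% counting intervals). In the POLK-/- panel RNY5, RNY4 and RNY1 lie at 0.353 to 0.455, under the grey points of similar strength, and in the DDX23-/- panel RNY5, RNY4 and RNY1 lie among the grey points, with RNY3, at 0.459, near their lower end.

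Other genes of RNA polymerase III showed peaks in these lists too. Of the genes with promoters before the gene, 8 were matched in the annotation (RN7SK, RNU6-1, RNU6-2, RNU6-7, RNU6-8, RNU6-9, RNU6ATAC and RMRP), which make 7SK RNA, U6 and U6atac spliceosomal RNAs and the RNA of RNase MRP. A peak lay within 1 kb of the start of 8 of 8 in each list, against 2.55% of all annotated genes in WT, 4.43% in POLK-/- and 10.7% in DDX23-/- cells. All 24 summits were within 100 bp of the start. Over the genome-wide background their range was 34.9 to 223 in WT, 42.4 to 173 in POLK-/- and 43.2 to 177 in DDX23-/- cells. The RNY3 value was above this range in the 3 lists, and the RNY4 value was below it in the POLK-/- list. The POLK-/- to WT ratio of these 8 genes ran from 0.688 at RNU6-2 to 1.97 at RNU6ATAC with a median of 1.01. The 4 Y RNA ratios on this scale, 0.353 to 0.670, were below all 8, with that of RNY3 limited by the highest POLK-/- summit, as stated above. With the deposited fold the 8 ratios ran from 0.782 to 2.07, above those of RNY5, RNY4 and RNY3, while RNY1 at 1.30 was above 7 of the 8. Over the genome-wide background the DDX23-/- to WT ratio of the 8 genes ran from 0.790 to 1.87 with a median of 1.14. RNY5 and RNY4 lay within that range, and RNY1 and RNY3 lay below it. The WT values of RNY1 and RNY3 exceeded every DDX23-/- value, so their ratios could not reach 1. The same held for RNU6-2, the lowest of the 8, whose WT value of 223 equalled that of RNY1. Its ratio of 0.790 lay within the interval of RNY1 (0.774, 0.630 to 0.957).

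Of 23 genes with gene-internal promoters, most of them copies of the 5S rRNA gene, 5 had a peak at the start in each list, namely RN7SL2, which makes 7SL RNA of the signal recognition particle, the vault RNA genes VTRNA1-1, VTRNA1-2 and VTRNA1-3, and the brain cytoplasmic RNA gene BCYRN1. Their values over the genome-wide background were 61.1 to 309 in WT, 118 to 269 in POLK-/- and 124 to 193 in DDX23-/- cells. Their POLK-/- to WT ratios on this scale were 0.871 to 1.94, above those of the 4 Y RNA genes, of which that of RNY3 was limited as stated above. With the deposited fold they were 0.492 to 5.42, above those of RNY5, RNY4 and RNY3, and 3 of the 5 were below RNY1.

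**Figure D5:**
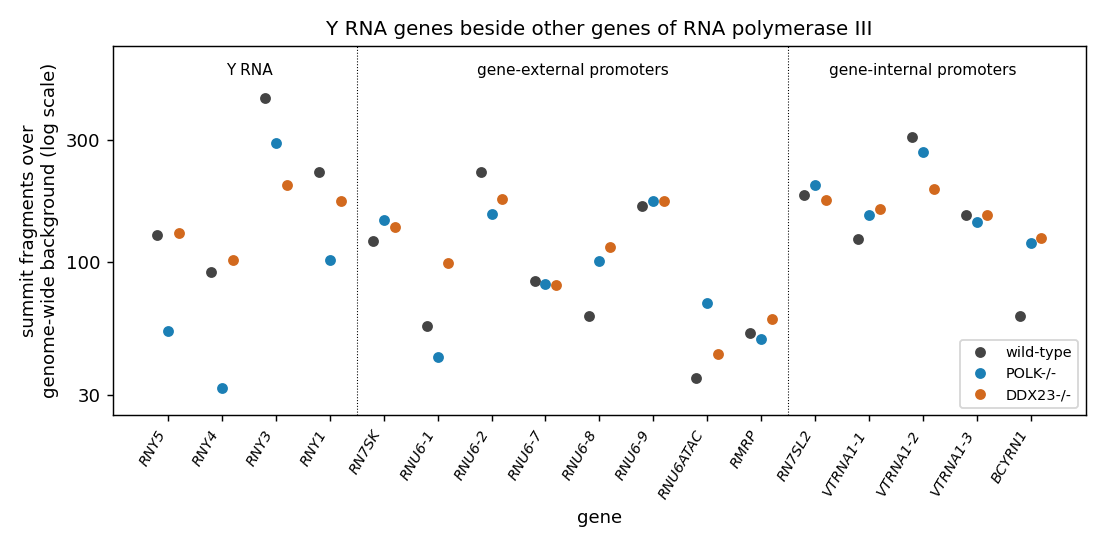
Summit fragments over the genome-wide background, on a log axis, at the Y RNA genes and at the other RNA polymerase III genes with a peak in each list, colored by list. RNY3 in the WT list, at 436, is the highest point and RNY4 in the POLK-/- list, at 32.0, is the lowest.

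Genes of proteins that bind Y RNAs or act on their promoters were looked at in the same way. The share of all annotated genes with a peak within 1 kb of the start was 2.55% in WT, 4.43% in POLK-/- and 10.7% in DDX23-/- cells, whose list is the longest. That share includes noncoding genes, whereas the genes looked at here all encode proteins. No share of protein-coding genes was computed, so the counts below are not read as an excess. Of 18 genes of Y RNA-binding proteins, 4 had a peak within 1 kb of the start in WT, 4 in POLK-/- and 7 in DDX23-/- cells. HNRNPK, YBX1 and SYMPK, which encode an RNA-binding protein of the nucleus, a cold-shock domain protein and a scaffold of the 3′ processing machinery, were in all 3. RO60, the gene of the Ro60 protein, had a peak in the WT and DDX23-/- lists. The WT one held 7 fragments, where the weakest peaks held 6, and was at rank 1388 of 1468. Its absence from the POLK-/- list is therefore not read as a loss. CPSF2, of a subunit of the polyadenylation factor CPSF, had a peak in the POLK-/- and DDX23-/- lists. ELAVL1, of the RNA-binding protein HuR, and IFIT5, an interferon-induced gene, had a peak in the DDX23-/- list. The highest value of the 18 genes over the genome-wide background was 46.3, in the DDX23-/- list. Of 10 genes of promoter factors, 0 had a peak in WT, 1 in POLK-/- (ZNF143) and 6 in DDX23-/- cells (SNAPC1, SNAPC3, POU2F1, ZNF143, BDP1 and TBP). Most of these DDX23-/- peaks were weak. They ran from rank 1541 at ZNF143 to rank 5722 of 5945 at SNAPC3, and from 27.8 down to 9.78 over the genome-wide background. SNAPC3 held 19 fragments, where the weakest peaks of that list held 14. The summit of the TBP peak lay more than 1 kb before the start of TBP.

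The human genome holds many copies of Y RNA sequence, and 855 are annotated outside the cluster. A peak within 1 kb was found at 1 of 855 in the WT list (0.117%, exact 95% interval 0.00296 to 0.650%), 1 of 855 for POLK-/- and 4 of 855 for DDX23-/- cells (0.468%, 0.128 to 1.19%). None of these peaks overlapped a copy, 0 of 855 copies had a peak within 200 bp in any list, and the highest of their values over the genome-wide background was 20.9. The copy at chr1:185227043-185227147 (ENSG00000206640.1) was the one found in each list, and the peaks near the other 3 in the DDX23-/- list had the start of a protein-coding gene (KIF5B, TTC1 or MRPS14) within 1 kb of the summit. Matches at 95% identity or more over at least 80% of the length were found elsewhere for RNY3 (27), RNY4 (9), RNY5 (1) and RNY1 (0), so fragments read from the gene itself may align to several places. The 250 bases before the start had 0 such matches for each of the 4 genes. Of the DDX23-/- peak, matches of at least 50 bases at that identity covered 12.4% at RNY3, 24.3% at RNY4, 6.48% at RNY5 and 7.98% at RNY1. Bowtie2 in its default mode places a read with several matches at a single one of them, but whether such reads were filtered before the peaks were called is not given in the sources used here, and their part in the peak values was not tested.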

How the data were processed

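ChIP-Seq peak lists of WT, POLK-/- and DDX23-/- HEK293T cells were used, 1 list per genotype as assigned by the deposit. The submitters' processing notes name Bowtie2, MACS2, bedtools, deepTools and hg19. The study's methods give Bowtie2 in default mode and removal of duplicates with Picard for its Pol κ ChIP-Seq, without naming these genotypes. Peak-calling options, thresholds, controls and pooling are not given in the sources used here. For each peak the authors deposited a fold (fragments over local background, each raised by 1 before the ratio is taken), the −log10 of the p-value and of the q-value, and a score that equals 10 times the −log10 q in every peak.

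The MACS2 formulas were solved for the whole number of fragments at the summit and for the background. A solution was found for every peak of the 3 lists, with more than 1 solution at 19 POLK-/- peaks and 1 DDX23-/- peak, none of them at a Y RNA gene. Tested on simulated data, it returned the fragments of 800 of 800 peaks at each of 3 scales. In each list the lowest background found at 2% or more of its peaks served as the genome-wide level (0.573, 0.920 and 1.28 scaled fragments in WT, POLK-/- and DDX23-/-), and with the shortest peak (228, 211 and 196 bp) as fragment length it gave library depths of 1, 2.36 and 3.94 relative to WT. The total number of reads is unknown. The weakest peaks rested on 6, 10 and 14 fragments.

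An overlap of 1 bp or more made peaks of different lists shared. Genes were those of GENCODE v44 on GRCh37, sequences were read from GRCh37, and copies were searched with blastn 2.17.0 at a word size of 11. Values were computed with Python 3.11.15, numpy 2.4.6, scipy 1.17.1 and pandas 2.3.3. The genes named were the 4 members, the nearest peaks beyond 1 kb and the gene starts near the cluster, the members with a peak of the fixed lists of RNA polymerase III genes, Y RNA-binding proteins and promoter factors, and the Y RNA copies with a peak. RPPH1 and RN7SL1 were listed but not matched by symbol and are not analysed here, and 1 gene sequence is not reported here. The members and lists were chosen with earlier results of these data known, and no test was made. The alternatives tried were other distances, thresholds, ranking values and divisors.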

Additional observations from a re-analysis of the deposited data

How the results depend on the processing

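The count of 4 Y RNA genes with a peak in each list was the same under 18 of 18 alternatives (distances of 200 bp and 5 kb, summit to start, a q of 1e-05 or less, equal list sizes, and named chromosomes only). This adds no support, since the peaks themselves fixed the outcome. Each overlaps its gene on chromosome 7, with its summit within 1 kb of the start. The lowest −log10 q was 20.2 and the lowest place rank 634, at RNY4 for POLK-/-, against 1468 peaks kept. The ratio to WT depended on the divisor. As a plain ratio of fragments to local background it was 0.218 at RNY5 for POLK-/-, and 1.10 at RNY5 and 1.03 at RNY4 for DDX23-/-. Relative to the median ratio of shared peaks it was 0.340 at RNY3 for POLK-/-, and for DDX23-/- it was 0.530 at RNY3, 1.43 at RNY1, and, with the direction turned, 0.825 at RNY5 and 0.834 at RNY4. Over the genome-wide background it was 0.670 at RNY3 for POLK-/-, 0.459 at RNY3 and 1.02 at RNY5 for DDX23-/-, and the direction at RNY1 turned to 0.455 for POLK-/- and 0.774 for DDX23-/-. The divisor differs by construction. At RNY1 the WT local background was 6.35 times genome-wide. The lower POLK-/- values of RNY5, RNY4 and RNY3 had the same direction under each divisor tried. Over the genome-wide background the direction was fixed in advance at RNY3 for POLK-/- and DDX23-/-, and at RNY1 for DDX23-/-, by the highest summit of the list. Of 160 alternatives over 61 values, 92 stayed within the counting interval or, for counts, ranks and widths, within 1.5 times the value reported, 64 moved and 4 reversed. Ranks among peaks with a width at or under the median gave no value, since every Y RNA peak was wider than that. No paired analysis was possible because there was 1 list per genotype and no test, and no replicate could be left out. The Y RNA summits rest on 52 to 250 fragments in the WT list, 40 to 365 in the POLK-/- list and 197 to 389 in the DDX23-/- list.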
